A study of Mus musculus with 6 samples.

Results

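The group described here is 37 translation factors: the initiation factors, the elongation factors, the poly(A)-binding protein Pabpc1, the eIF4E-binding repressors and the haem-regulated eIF2 kinase. The members were taken by gene symbol from a fixed list, with no measured value used as a filter. The list was chosen with earlier results of these data known. All 37 were found among the 27179 genes counted. RNA was sequenced from erythrocytes of 6 individual mice of strain background BalB/c. The mutants, 3 males, had the genotype Nxf1+/C587R, in which 1 copy of Nxf1, the main export receptor for messenger RNA, carries a missense allele, and the controls were 3 Nxf1+/+ littermates. The labels name no driver that would limit the allele to red cells, and the age of the mice is not given in the sources used here. Each of 3 labelled batches held 1 mutant and 1 wild-type library, and values below are given in batch order.

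Translation initiation begins when eIF2 carries the initiator tRNA to the small ribosomal subunit together with eIF1, eIF1A, eIF3 and eIF5. The cap-binding complex eIF4F then recruits the messenger RNA, the start codon is selected, and eIF5B joins the large subunit before the eEF1 and eEF2 factors elongate the chain. Red cells lose their nucleus, so the RNA in them is what remains from their precursors, and most of it encodes globin. In these cells the haem-regulated kinase, encoded by Eif2ak1, is known to halt globin synthesis when haem is short.

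Library totals ran from 14636739 to 15790336 counts, of which the globin genes took 88.1% to 89.3%. All remaining genes shared 1627997 to 1877571 counts in each. The number of genes with at least 10 counts ran from 2103 to 2772 in the mutants and from 2741 to 4096 in wild type. Nxf1 itself had 9, 7 and 11 mutant and 15, 10 and 20 wild-type counts, a log2 fold change of −0.21 (SE 0.38, edgeR adjusted p = 0.850), and counts per gene do not tell the alleles apart. Erythroid markers were detected in every library (9 of 9) and summed to 10696345 to 11559687 counts. These raw counts overlapped, at 10696345 to 11168276 in mutants and 10757300 to 11559687 in wild type. After the TMM scaling described next, they were 690400 to 1023000 CPM in mutants and 595600 to 656300 CPM in wild type. There the groups did not overlap, a separation that arose only with the scaling, and 1 of the 9 was called higher in mutants. Scaled values are not shares of a library: the TMM-scaled size of mutant 1 (10919336) was below its erythroid count (11168276). Levels are given below as CPM, counts scaled to a common library size after TMM scaling, which estimates that size from the bulk of the genes. The mutant libraries had TMM factors of 0.720, 0.780 and 1.06 and the wild-type libraries 1.23, 1.11 and 1.23, so the choice of scale bears on every comparison. With total counts in place of TMM, the median gene had a log2 fold change of −0.53, against −0.06 with TMM. In such bulk samples, fewer cells of a type and less RNA per cell cannot be told apart.

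Markers of other cells also differed between the groups. All 8 T and NK cell markers were detected in every library, at a summed 1.74 to 2.86 CPM in mutants and 3.57 to 7.06 CPM in wild type, and 2 of the 3 tested were lower in mutants. All 6 B cell markers were detected in every library, at 5.81 to 9.34 CPM in mutants and 10.2 to 19.2 CPM in wild type, and 0 of the 4 tested were called by edgeR. Hepatocyte transcripts, 14 of 14 detected in every mutant library, summed to 129 to 305 CPM there and to 0.670 to 4.83 CPM in wild type, where 9 of them (Apoa1, Apoa2, Apob, Apoc3, Serpina1b, Fga, Fgg, Mup2 and Ahsg) had no count. All 14 hepatocyte transcripts were tested, and 12 were called higher in mutants by edgeR. Platelet markers overlapped, at 5.13 to 16.0 CPM in mutants and 8.19 to 14.9 CPM in wild type, and so did those of neutrophils and macrophages, at 92.2 to 135 CPM and 93.8 to 120 CPM. Wild-type library 1 alone held 307 counts of 10 exocrine pancreas transcripts, of which the other libraries had 1 count at most. The part of these cells in the results below was not tested.

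Translation factor transcripts in red cells were dominated by 2 genes. Pabpc1, whose product binds poly(A) tails and links them to the cap complex, took 63.2% of all counts of the 37 members, and Eif5, which activates the GTPase step at the start codon, took 21.0%. Per length, Pabpc1 had a mean of 140.9 CPM per kilobase of transcript over the 6 libraries (called the per-kilobase level below), which was rank 51 among all genes. Eif5 followed at 35.2, rank 113 of all genes. The next per-kilobase levels were those of Eif3k at 12.6, Eef2 at 8.91, Eef1a1 at 6.75, Eef1b2 at 4.20, Eif1 at 4.03 and Eef1d at 3.03. The median member stood at 0.409, close to the median of 0.459 for 79 cytosolic ribosomal protein genes. Other genes with nearly identical stretches, which can affect counts, were looked for with the members and not with these 79. The lowest members were Eif4e at 0.0963, Eif2s2 at 0.0639 and Eif2s3x at 0.0404.

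**Figure D1:**
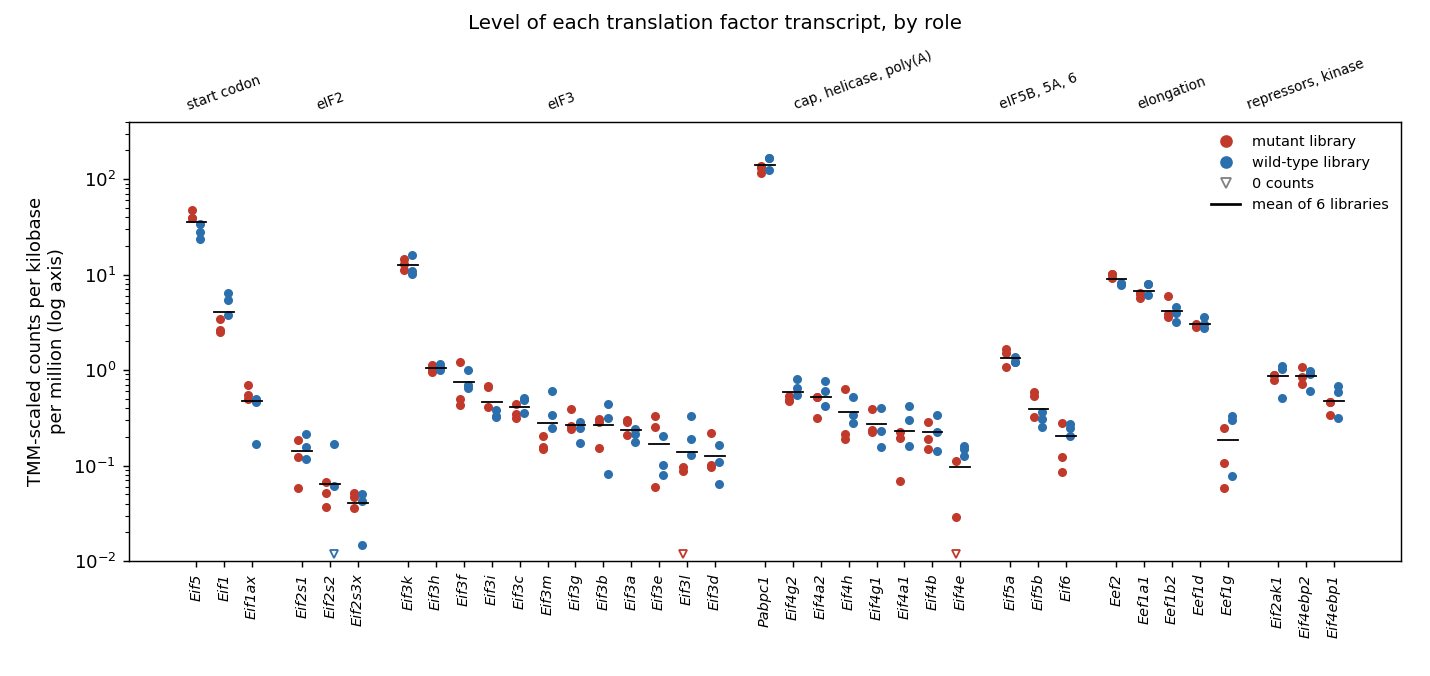
Per-kilobase level (TMM-scaled CPM per kilobase, log axis) of each of the 37 members, grouped by role. Points are libraries (red mutant, blue wild type), black bars are means of 6 libraries and open triangles mark libraries with 0 counts. Pabpc1 (140.9) and Eif5 (35.2) stand above all other members, and within eIF3 the subunit Eif3k (12.6) stands above the other 11.

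Levels were therefore far from even within a complex. Among the 12 eIF3 subunits the median per-kilobase level was 0.274, with Eif3k at 12.6 and the next, Eif3h, at 1.05. Eif3l, which pairs with Eif3k in a peripheral module of the complex, stood at 0.140. Eif3k counts were 110, 134 and 135 in mutants and 148, 202 and 164 in wild type, whereas Eif3l had 2, 2 and 0, and 12, 4 and 7. The 3 eIF2 subunits, which form the ternary complex with the initiator tRNA, stood at 0.142 (Eif2s1), 0.0639 (Eif2s2) and 0.0404 (Eif2s3x). Between 1 and 3 counts of Eif2s3x were seen in each library. Eif2s2 and Eif2s3x each have 1 other gene in the files with nearly identical stretches, with 28 and 38 counts. Eif2s2 itself had 5 mutant and 11 wild-type counts and Eif2s3x 6 and 7, so their low levels depend on how such reads were treated. For a gene with no count, the limit was 3 counts, or 0.190 to 0.205 CPM of the unscaled library total.

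Only 22 of the 37 members had enough counts for the test between genotypes. The other 15 had at most 15 counts in any library, and their counts summed to 169 in the 3 mutants and 296 in the 3 wild-type mice, with 12 of the 15 fewer in mutants. These counts are not scaled, and on total counts the median of all genes tested was itself −0.53 on the log2 scale. With TMM scaling, Eif2s3x (mean 0.160 against 0.130 CPM), Eif3d (0.266 against 0.214) and Eif3g (0.318 against 0.252) turned higher in mutants. The others of the 12 stayed lower. The 15 untested members were all 3 eIF2 subunits, 6 of the 12 eIF3 subunits, Eif1ax, Eif4a1, Eif4e, Eif6, Eef1g and Eif4ebp1. Among them 1 library had no count of Eif2s2, 1 of Eif3l and 1 of Eif4e.

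Of the 22 tested members, 1 was lower in mutants (Eif1) and 0 were higher by edgeR's quasi-likelihood test at an adjusted p under 0.05. The same test called 1.06% of all 2823 genes tested lower and 5.99% higher. The members had a median log2 fold change of −0.09, with 13 below 0 and 9 above. With batch as a term, 1 member was lower (Eif1) and 1 higher (Eif5), against 2.13% and 6.87% of all genes. On total counts, 4 members were lower (Eif1, Pabpc1, Eif4g2 and Eef1a1) and 0 higher, against 8.68% and 4.07% of all genes, and the members' median of −0.57 lay beside the −0.53 of all genes. There, 12 members lay below the median of all genes and 10 above it. DESeq2, with its own scaling, called 0 members lower and 1, Eif5, higher, against 11 lower and 177 higher of 2823 genes.

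**Figure D2:**
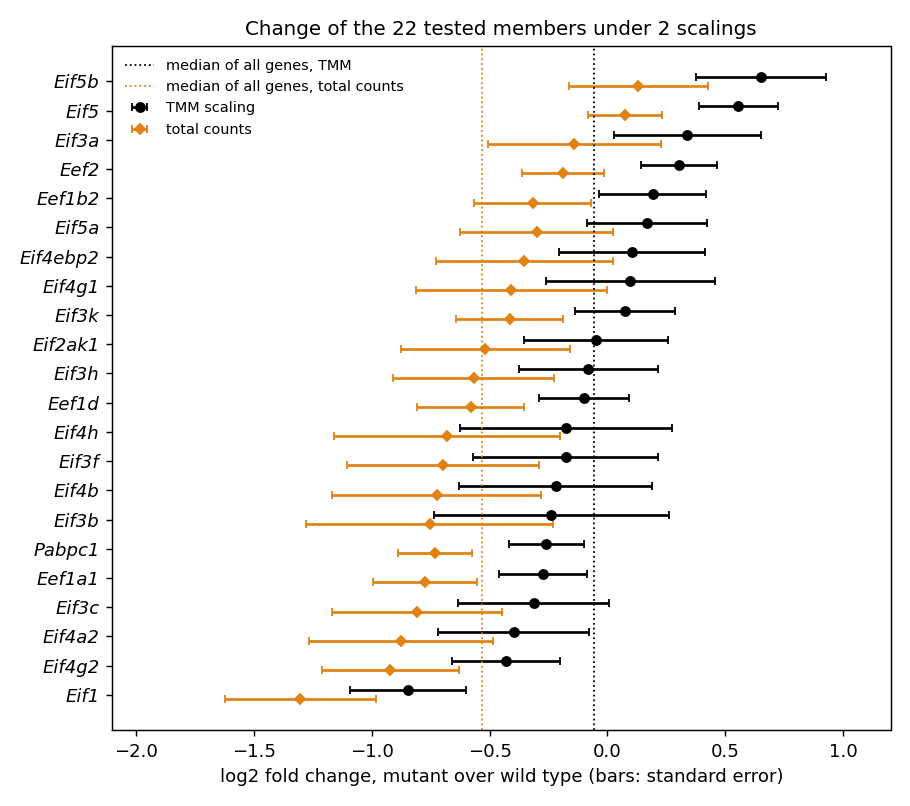
Log2 fold change (mutant against wild type) with its standard error for the 22 tested members under TMM scaling and with total counts, n = 3 libraries a group. Dotted lines are the medians of all genes (−0.06 and −0.53). Eif1 lies lowest on either scale (−0.85 and −1.30), and the shift between scales is shared by all members.

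Among the factors that scan for and select the start codon, Eif1 was called lower and Eif5 was not called. Eif1 (Entrez gene 20918, chromosome 11, 100319949 to 100322099 in mm10), which keeps the scanning ribosome from starting at a wrong codon, had 33, 38 and 65 counts in mutants and 88, 107 and 150 in wild type. Scaled, these were 3.02, 3.20 and 4.20 CPM against 4.62, 6.53 and 7.73 CPM. All 3 mutant libraries lay below all 3 wild-type libraries, as in 11.1% of all genes tested, and below their own batch partner. Mean Eif1 was 3.47 ± 0.633 CPM in mutants against 6.29 ± 1.57 CPM in wild type (SD, n = 3 each), and the difference passed the test (log2 −0.85, SE 0.24, edgeR adjusted p = 0.0422). With batch as a term it also passed, and on total counts it fell by 1.30 on the log2 scale (edgeR adjusted p = 0.0144), which is 0.77 below the median of all genes there. The call was close to its threshold: DESeq2 gave an adjusted p of 0.113, and without any 1 library other than wild-type 1 the edgeR adjusted p was 0.0616 to 0.278. Summed T, NK and B cell markers, given above, were lower in mutants too, though 0 of the 4 tested B cell markers were called. A link of Eif1 to these cells was not tested. Stretches nearly identical to Eif1 (at least 200 bases) lie in 13 other genes, of which 3 were in the files with 84 counts in all.

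Eif5 (Entrez gene 217869, chromosome 12, 111538101 to 111546753) had 1683, 2240 and 2423 counts in mutants and 1790, 2200 and 2162 in wild type. Raw counts therefore overlapped, while the scaled values of 154, 188 and 156 CPM lay above the wild-type 94.0, 134 and 111 CPM, as in 12.3% of all genes. The log2 fold change was 0.55 (SE 0.17, edgeR adjusted p = 0.0516), or 166 ± 19.1 against 113 ± 20.2 CPM (SD, n = 3 each). With batch as a term it was 0.56 and passed (edgeR adjusted p = 0.0189), it was higher in 3 of 3 batches, and DESeq2 gave an adjusted p of 0.0430. Leaving out single libraries gave 0.44 to 0.71 with edgeR adjusted p of 0.0222 to 0.333, under the threshold without mutant 3 (0.0359) or wild-type 2 (0.0222). On total counts it was 0.07 (edgeR adjusted p = 0.722), which is 0.61 above the median of all genes there. The ratio of Eif5 to Eif1 counts, chosen after its values were seen and free of any library scale, was 51.0, 58.9 and 37.3 in mutants and 20.3, 20.6 and 14.4 in wild type, 2.65-fold higher in mutants with no overlap. Eif1ax, the eIF1A factor that works beside Eif1, had 21 mutant and 19 wild-type counts and was not tested.

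**Figure D3:**
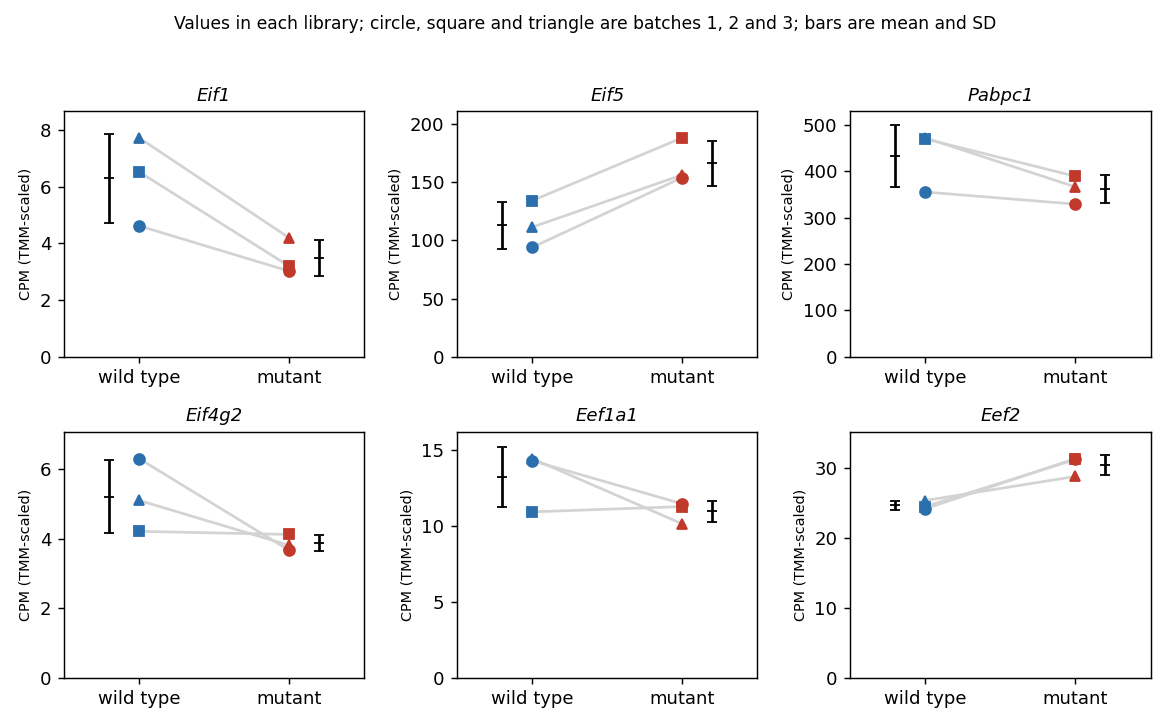
TMM-scaled CPM per library for 6 members: Eif1, Eif5, Pabpc1, Eif4g2, Eef1a1 and Eef2. Symbols mark the 3 batches, lines join the libraries of a batch, and bars are the mean ± SD of 3 libraries. Mutant Eif1 (3.02 to 4.20 CPM) and Eif4g2 (3.66 to 4.12 CPM) lie below wild type, mutant Eif5 (154 to 188 CPM) and Eef2 (28.9 to 31.4 CPM) above, and Pabpc1 and Eef1a1 overlap.

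The promoters of Eif5 and Eif1 are shown because the ratio of their counts did not overlap between the genotypes, and that of Eef2 as an abundant member with an E-box. Each sequence is from RefSeq on GRCm38.p6, whose mouse strain is not that of the study. It starts 250 bases before the RefSeq start and ends before the first annotated transcript. Capitals mark matches, on either strand, to any of 4 motifs. They are the E-box bound by Myc and Usf factors (CACGTG), the box bound by the factor NF-Y (CCAAT), the motif of GATA factors (GATAA) and that of Klf factors (CACCC).
Eif5 (chr12:111537851-111538015, plus strand): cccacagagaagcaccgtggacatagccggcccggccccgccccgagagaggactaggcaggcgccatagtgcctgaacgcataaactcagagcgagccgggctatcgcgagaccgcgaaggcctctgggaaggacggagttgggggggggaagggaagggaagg
Eif1 (chr11:100319699-100319884, plus strand): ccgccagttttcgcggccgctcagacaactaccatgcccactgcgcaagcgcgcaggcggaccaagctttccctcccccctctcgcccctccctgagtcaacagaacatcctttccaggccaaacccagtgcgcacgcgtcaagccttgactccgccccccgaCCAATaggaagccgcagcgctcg
Eef2 (chr10:81176381-81176630, plus strand): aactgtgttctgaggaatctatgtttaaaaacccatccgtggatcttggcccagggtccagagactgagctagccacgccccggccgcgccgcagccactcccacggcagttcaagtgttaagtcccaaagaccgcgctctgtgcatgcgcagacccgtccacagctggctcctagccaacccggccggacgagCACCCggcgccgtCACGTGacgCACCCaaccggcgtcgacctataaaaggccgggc

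The Eif5 sequence held none of the 4 motifs, that of Eif1 held the NF-Y box, and that of Eef2 held an E-box between a pair of Klf motifs. The bases of the Eif1 window beyond those shown held a Klf motif. Windows of 250 bases were found for 28 of the 37 members, and the E-box was in 8 of them (28.6%), against 6.86% of 27025 genes. These 8 were Eef2, Eif3f, Eif3k, Eif4a1, Eif4e, Eif4g1, Eif4h and Eif5a, whose per-kilobase levels ran from 0.0963 (Eif4e) to 12.6 (Eif3k). The NF-Y box was in 8 (28.6%) against 37.5% of genes, the GATA motif in 3 (10.7%) against 25.5%, and the Klf motif in 15 (53.6%) against 54.5%. No match overlapped another in the sequences shown. The E-box and the NF-Y box occurred together in Eif3f, Eif3k, Eif4a1, Eif4e and Eif5a. A match is a description and not a binding site.

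None of the 6 tested eIF3 subunits was called on TMM, with batch as a term or on total counts, and their log2 fold changes ran from −0.31 to 0.34. Eif3k had 10.1, 11.3 and 8.71 CPM in mutants and 7.77, 12.3 and 8.45 CPM in wild type, with full overlap (log2 0.07, SE 0.21, edgeR adjusted p = 0.909). Eif3a, the core scaffold of the complex, had 1.56, 1.09 and 1.49 CPM against 1.10, 0.915 and 1.24 CPM (log2 0.34, SE 0.31, edgeR adjusted p = 0.649, and 0.52 without mutant 2). Eif3c, another core subunit, had 1.01, 1.26 and 0.904 CPM against 1.47, 1.04 and 1.39 CPM (log2 −0.31, SE 0.32, edgeR adjusted p = 0.704, and −0.11 without mutant 3). Both overlapped between the groups, and at these levels a standard error near 0.32 leaves changes of that size undetectable.

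In the cap-binding group, no member was called with TMM scaling, against 1.06% of all genes tested lower and 5.99% higher. On total counts 2 of the 6 tested were lower, against 8.68% of all genes. Pabpc1 (Entrez gene 18458, chromosome 15, 36595658 to 36609581) had 329, 389 and 366 CPM in mutants and 356, 470 and 473 CPM in wild type. The groups overlapped, each mutant lay below its batch partner, and the log2 fold change was −0.26 (SE 0.16, edgeR adjusted p = 0.442), and −0.13 without mutant 1. On total counts it fell by 0.73 on the log2 scale (edgeR adjusted p = 0.00518), which is 0.20 below the median of all genes there. Eif4g2 (Entrez gene 13690, chromosome 7, 111067985 to 111083030), an eIF4G relative that lacks the eIF4E-binding site, had 3.66, 4.12 and 3.81 CPM against 6.30, 4.21 and 5.10 CPM. Its groups did not overlap, as in 11.1% of all genes tested, though mutant 2 and wild-type 2 were close. Eif4g2 did not pass the test (log2 −0.43, SE 0.23, edgeR adjusted p = 0.335, and −0.27 without wild-type 1). On total counts it fell by 0.92 on the log2 scale (edgeR adjusted p = 0.04998), or 0.39 below the median of all genes. Eif4a2, a helicase of the same complex, had a log2 fold change of −0.40 (SE 0.32, edgeR adjusted p = 0.586), and Eif4g1, its scaffold, 0.10 (SE 0.36, edgeR adjusted p = 0.929). Eif4e, the cap-binding protein itself, had 0, 1 and 5 counts in mutants and 7, 7 and 9 in wild type and was not tested. A stretch nearly identical to Eif4e lies in 1 other gene, so its low level may depend on how such reads were treated.

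Pabpc1 and Eif5 made up different shares of the translation factor counts in the 2 genotypes. Pabpc1 took 56.1%, 57.1% and 59.4% of the members' counts in mutants and 64.8%, 66.9% and 68.7% in wild type. Eif5 took 26.2%, 27.6% and 25.4% in mutants and 17.1%, 19.1% and 16.2% in wild type. Neither overlapped between the groups, and the differences were larger than the spread, at 57.5 ± 1.72% against 66.8 ± 1.94% for Pabpc1 and 26.4 ± 1.14% against 17.5 ± 1.48% for Eif5 (SD, n = 3 each). The other 33 members, without these 2, Eif1 and Eef2, took 10.7 ± 1.06% and 10.9 ± 1.66%. All 37 members together took 0.390%, 0.495% and 0.587% of the non-globin counts in mutants and 0.600%, 0.703% and 0.711% in wild type. The groups again did not overlap, though mutant 3 and wild-type 1 were close. On total counts the median of all genes tested was lower in mutants too (log2 −0.53). All shares in this paragraph were compared after their values were seen and carry no test, and those of the members' counts sum to a whole within a library.

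**Figure D4:**
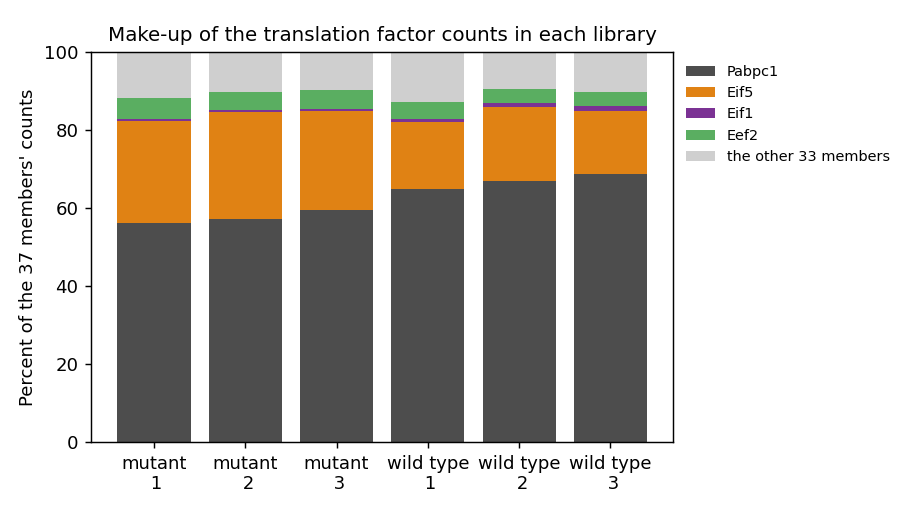
Share (%) of the 37 members' counts taken by Pabpc1, Eif5, Eif1, Eef2 and the other 33 members in each of the 6 libraries. Bars are single libraries and sum to the whole. The Eif5 share is 25.4% to 27.6% in mutants and 16.2% to 19.1% in wild type, and the Pabpc1 share runs the other way.

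Of the factors of subunit joining, Eif5b, the GTPase that joins the large subunit, had 4.21, 4.62 and 2.52 CPM in mutants and 2.42, 2.81 and 1.96 CPM in wild type. Mutant 3 lay among the wild-type values, and the difference missed the threshold (log2 0.65, SE 0.28, edgeR adjusted p = 0.206), though it passed without mutant 3 (0.97, edgeR adjusted p = 0.0323). Eif5b shares 1643 exon bases with Rev1 on the opposite strand, and whether the counting used strand is not given in the sources used here. Eif5a, which helps ribosomes through stretches such as prolines, had 2.20, 3.36 and 3.03 CPM against 2.47, 2.75 and 2.47 CPM (log2 0.17, SE 0.26, edgeR adjusted p = 0.817). Its value was 0.38 without mutant 1 and 0.09 without mutant 2.

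The elongation factors showed no call with TMM scaling. Eef2 (Entrez gene 13629, chromosome 10, 81176631 to 81182509), the translocase, had 31.4, 31.3 and 28.9 CPM in mutants and 24.2, 24.5 and 25.4 CPM in wild type. The groups did not overlap, at 30.5 ± 1.44 against 24.7 ± 0.616 CPM (SD, n = 3 each). Of the 22 tested members, 2 lay above wild type without overlap and 2 below, against 12.3% and 11.1% of all genes tested. Eef2 did not pass the test (log2 0.30, SE 0.16, edgeR adjusted p = 0.335). On total counts its value was −0.19 (edgeR adjusted p = 0.429), or 0.34 above the median of all genes. Eef1a1 (Entrez gene 13627, chromosome 9, 78478453 to 78481724), which delivers aminoacyl-tRNA, had 11.5, 11.3 and 10.1 CPM against 14.3, 10.9 and 14.4 CPM, with wild-type 2 among the mutants (log2 −0.27, SE 0.19, edgeR adjusted p = 0.499, and −0.13 without mutant 3). On total counts it fell by 0.77 on the log2 scale (edgeR adjusted p = 0.0309), or 0.24 below the median of all genes. Its exchange factors Eef1b2 and Eef1d had log2 fold changes of 0.19 (SE 0.23, edgeR adjusted p = 0.751) and −0.10 (SE 0.19, edgeR adjusted p = 0.854). Stretches nearly identical to Eef1a1 lie in 9 other genes, 2 of them in the files with 89 counts, so its count depends on how such reads were treated.

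Neither tested member among the repressors and the kinase was called on any scale. Eif2ak1 had 2.02, 2.27 and 2.26 CPM in mutants and 1.31, 2.87 and 2.63 CPM in wild type, with the mutants inside the wild-type range (log2 −0.05, SE 0.31, edgeR adjusted p = 0.957). It overlaps Aimp2 on the opposite strand by 487 exon bases. Eif4ebp2, which holds eIF4E away from eIF4G, had 1.28, 1.51 and 1.94 CPM against 1.63, 1.77 and 1.08 CPM (log2 0.10, SE 0.31, edgeR adjusted p = 0.910). Its relative Eif4ebp1 had 16 counts in mutants and 28 in wild type.

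Ratios between paralogs were compared as counts within a library, in 3 planned pairs. Eif4a2 to Eif4a1, the paired helicases, was 4.50, 2.40 and 13 in mutants and 3.13, 4.40 and 3.36 in wild type. Stretches nearly identical to Eif4a1 lie in 3 other genes and to Eif4a2 in 1, so this ratio may depend on how such reads were treated. Eif4g2 to Eif4g1 was 2.86, 1.96 and 3.11 against 2.93, 4.93 and 4.13. Eif4ebp2 to Eif4ebp1 was 2.80, 4.50 and 4.29 against 2.82, 2.64 and 3.50. All 3 overlapped between the groups, with mean log2 differences of 0.53, −0.59 and 0.35 and exact two-sided permutation p-values of 0.6, 0.2 and 0.3 (0.6, 0.45 and 0.45 adjusted over the 3). With 3 against 3 libraries the smallest p this test can give is 0.1.

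Several abundant members, Eef1a1, Eef2 and Pabpc1 among them, are TOP mRNAs, whose 5′ pyrimidine tract places them under mTOR control. The 10 members listed as such, 8 of them tested, had a median log2 fold change of −0.14 with 0 called in either direction. The 27 others, 14 tested, had a median of 0.01 with 1 called lower. Of 79 cytosolic ribosomal protein genes, which are TOP mRNAs as well, 32 were tested, 5 were higher and 0 lower, with a median of 0.23. Of all genes tested, 5.99% were higher and 1.06% lower. On total counts the 3 medians were −0.64, −0.47 and −0.29, against −0.53 for all genes. The calls there were 2 lower, 2 lower and 1 lower, with 0 higher in each, against 8.68% lower and 4.07% higher of all genes.

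Other genes of the pathway were largely too low to test. Of 28 further initiation factors 6 were tested and 0 called, among them the second poly(A)-binding protein Pabpc4 (log2 0.27, edgeR adjusted p = 0.495) and the Pabpc1 inhibitor Paip2 (log2 −0.19, edgeR adjusted p = 0.717). Of 12 further elongation and release factors 2 were tested, and Tpt1, an abundant TOP mRNA whose product binds elongation factors, rose. It had 71.3, 64.1 and 60.2 CPM in mutants and 43.9, 38.3 and 42.5 CPM in wild type. These did not overlap, as in 12.3% of all genes tested (log2 0.65, SE 0.16, edgeR adjusted p = 0.0124). On total counts the Tpt1 value was 0.15 (edgeR adjusted p = 0.489). Leaving out single libraries gave Tpt1 edgeR adjusted p-values of 0.00409 to 0.0888, over the threshold without mutant 1 (0.0888), mutant 2 (0.0693), wild-type 2 (0.0574) or wild-type 3 (0.0835).

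Of 12 genes of the eIF2 kinase and stress response 5 were tested and 0 called with TMM scaling. On total counts 2 were lower, against 8.68% of all genes. The median log2 fold change of the 5 was 0.14, and −0.36 on total counts, against −0.53 for all genes there. Eif2ak3, the eIF2 kinase of the endoplasmic reticulum, had 4, 17 and 19 counts in mutants and 25, 4 and 11 in wild type, with overlap (log2 0.51, SE 0.56, edgeR adjusted p = 0.734, and 0.04 on total counts). Atf4, the transcription factor whose own translation rises when eIF2 is phosphorylated, had 10, 9 and 12 counts in mutants and 34, 17 and 29 in wild type (log2 −0.83, edgeR adjusted p = 0.186, and −1.32 on total counts, adjusted p = 0.0352). Ppp1r15a, which directs the phosphatase that reverses that phosphorylation, had 104, 95 and 141 counts against 190, 200 and 252 (log2 −0.40, edgeR adjusted p = 0.266, and −0.88 on total counts, adjusted p = 0.0211). Relative to the median of all genes on total counts, Atf4 was at −0.79, Ppp1r15a at −0.35 and Eif2ak3 at 0.57. Of 20 cytosolic aminoacyl-tRNA synthetases 3 were tested and 0 called. None of 9 mitochondrial translation factors could be tested, with 32 mutant and 31 wild-type counts.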

How the data were processed

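Polyadenylated RNA of erythrocytes from 6 individual mice was sequenced, 3 of each genotype, after Ficoll separation and a flow cytometry check, per the labels' protocols. The deposited values are raw counts per gene, 1 file a library, with no normalization, per the file headers. CASAVA 1.8.2, Subread, featureCounts and mm10 are named in the submitters' processing notes. The annotation, the strand setting and the treatment of reads with several matches are not given in the sources used here.

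Symbols and positions came from a RefSeq gene table (25275 of 27179 genes). The gene lengths used for per-kilobase levels were those deposited with the counts. Exon overlaps and nearly identical stretches came from GENCODE M21. The test was edgeR 4.0.16 (R 4.3.3), robust quasi-likelihood F test, TMM factors, low counts filtered by group (filterByExpr), a model of genotype alone, Benjamini-Hochberg adjustment over 2823 genes, called under 0.05. The SE is the log2 fold change over the root of F. The test was also run on simulated counts, with library sizes and dispersions from these data and changes in random directions. Its outcome is not given here, and it does not bear on the choice of scale. Counting error alone is covered by limits of 3 counts.

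Values of every library are given for members called in any of 3 fits (genotype only, batch as a term, total counts), the 3 with the highest level per length, and the 2 with the smallest p per role. For pathway lists, up to 3 genes with the smallest p and the 2 most abundant could be named. Members and lists were chosen with earlier results of these data known. Genes named outside these rules were chosen after their values were seen.

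The label "batch" pairs 1 mutant with 1 wild-type library. Same-batch deviations from group means correlated at −0.103, −0.0699 and −0.0576. Libraries of a group differed by more than sampling noise. Alternatives were batch as a term, RLE scaling, total counts, scaling after globins were removed, testing of unfiltered genes or of those averaging at least 50 counts, limma-voom (limma 3.58.1), DESeq2 1.42.0, and leaving out each library or batch.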

Additional observations from a re-analysis of the deposited data

How the results depend on the processing

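The level ranks of the 5 most abundant members did not change when medians replaced means. Counts of calls moved with the settings. Eif1 was the 1 member called lower, and the number called lower became 0 with RLE scaling, globins removed, no filter, DESeq2, limma-voom or without any of the 3 batches, 4 with total counts, and 0 to 1 without single libraries. The number called higher, 0, became 1 with the batch block, RLE scaling, a mean count of at least 50 or DESeq2, and 0 to 2 without single libraries. Over all genes the 30 lower calls became 60 with the replicate block, 19 with RLE scaling, 245 with total counts, 19 with globins removed, 82 with no filter, 49 with a mean count of at least 50, 11 with DESeq2, 19 without batch 2, 3 without batch 3 and 8 to 77 without single libraries. The 169 higher calls became 382 with no filter and 66 with a mean count of at least 50, and 137 to 244 without single libraries. The cause was not tested.

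With the batch pairing as a block, Eif1 had a log2 fold change of −0.85 (edgeR adjusted p = 0.0148) and Eif5 0.56 (0.0189), and no other tested member's call changed. Eif1 was lower under every setting run, with edgeR adjusted p of 0.0611 with RLE scaling, 0.0556 with globins removed, 0.0777 with no filter, and 0.0591, 0.320 and 0.215 without batches 1, 2 and 3. Eif5 passed with RLE scaling (0.0474), a mean count of at least 50 (0.0418), and without mutant 3 (0.0359) or wild-type 2 (0.0222), and missed with globins removed (0.0566), no filter (0.102), limma-voom (0.0658) and total counts (0.722), without mutant 1 (0.104), mutant 2 (0.333), wild-type 1 (0.129) or wild-type 3 (0.234), and without batches 1, 2 and 3 (0.177, 0.196 and 0.120). Ppp1r15a passed at a mean count of at least 50 (−0.53, adjusted p = 0.0431).

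Signs turned for members that passed no test. With total counts, log2 values were −0.19 for Eef2, −0.14 for Eif3a, −0.32 for Eef1b2, −0.41 for Eif4g1, −0.41 for Eif3k, −0.35 for Eif4ebp2 and −0.30 for Eif5a. Eif3k was −0.056 at a mean count of at least 50 and −0.051 to 0.32 without single libraries. Eif4ebp2 was −0.19 without batch 3 and −0.085 to 0.28 without single libraries. Eif2ak1 was 0.0066 with RLE scaling, 0.0048 with DESeq2, 0.043 with limma-voom, 0.16 and 0.13 without batches 2 and 3, and −0.33 to 0.16 without single libraries. The Eif4a2 to Eif4a1 log2 difference was −0.13 to 1.09 without single libraries, and the other paralog differences were −0.80 to −0.39 and 0.23 to 0.57. Depth limits the 15 untested members.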

Other observations

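Other count ratios between abundant members, picked after their values were seen, also separated the genotypes. Pabpc1 to Eif5 was 2.14, 2.07 and 2.34 in mutants and 3.78, 3.50 and 4.24 in wild type, 1.76-fold higher in wild type. Eef1a1 to Eef2, the elongation factors that deliver aminoacyl-tRNA and move the ribosome, was 0.364, 0.360 and 0.351 in mutants and 0.590, 0.445 and 0.568 in wild type, at 0.359 ± 0.00674 against 0.534 ± 0.0780 (SD, n = 3 each). Neither ratio depends on a library scale, both have no overlap between the groups, and neither was tested.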
